A study of Sus scrofa with 6 samples.

Results

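The nuclear genes for subunits of the mitochondrial respiratory chain and ATP synthase were compared, complex by complex, in back muscle of Tibetan pigs living high or low. The set was fixed by name: Ensembl pig gene IDs whose current symbol is that of a complex I subunit (NDUFA, NDUFB, NDUFC, NDUFS or NDUFV with a number, or NDUFAB1), a succinate dehydrogenase subunit, a UQCR gene, CYC1, CYCS, a COX4 to COX8 gene, or an ATP5 gene other than the inhibitor ATP5IF1. In the gene name table used, 72 symbols have such a name. Of these, 43 were matched by gene ID to a row of the deposited table of 25322 genes, and the other 29 are not analysed here, the muscle isoforms COX6A2 and COX7A1 among them. The 43 comprise 20 subunits of complex I, 4 of complex II, 6 of complex III, cytochrome c, 7 of complex IV and 5 of complex V. NDUFA4, named as a complex I gene, was placed with complex IV, where the protein is known to sit. All 43 passed the filter on low values, which asked for an FPKM of 1 or more in 3 or more libraries.

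RNA was sequenced from longissimus dorsi, a long back muscle, of 6 healthy female Tibetan pigs, 1 library per animal. The high altitude group was 3 free-ranging pigs from the Tibetan highland, at 4000 m on average. The low altitude group was 3 pigs under experimental conditions with normal daily feeding on the Chengdu plain, at 500 m on average, whose forebears were Tibetan pigs kept in the lowland for generations. Altitude, feeding, husbandry, place and line history changed together between the groups and cannot be told apart. No source used here gives the animals' age, litter or feeding state.

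The respiratory chain passes electrons from NADH (complex I, NADH dehydrogenase) and succinate (complex II, succinate dehydrogenase) through ubiquinone to complex III, then by cytochrome c to complex IV, cytochrome c oxidase, which reduces oxygen to water. Complexes I, III and IV pump protons, and complex V, the ATP synthase, uses the proton gradient to make ATP. Complexes I, III, IV and V combine subunits encoded in the nucleus with subunits encoded in mitochondrial DNA, whereas complex II is wholly nuclear. In skeletal muscle, slow oxidative fibres hold more mitochondria than fast glycolytic fibres.

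The unit throughout is FPKM, in which fragments are scaled by the length of the gene and by the size of the library, so levels can be compared between genes per length. The FPKM totals of the libraries were 506611 to 571855. Absolute depth is unknown, and relative depths read from the spacing of low values were 0.876 to 1.12. The muscle label was met by TNNC2 (11186 to 14823) and MYL11 (14390 to 17808), fast fibre troponin and myosin genes, while the skeletal actin ACTA1 was listed at 0 in all but 2 libraries, where it was at 34168 and 35618. An exact 0 in this table can therefore be a failed estimate, and none of the 43 subunits was listed at 0 in any library. High altitude library 1 stood apart from the rest. It had the highest summed FPKM of the 5 slow fibre markers in the table, of 11 on the list (10508, against 2756 and 6882 in the other high altitude libraries and 3110 to 4713 at low altitude), and the lowest of the 5 fibroblast and matrix markers of 6 (246, against 688 to 1068 in the other 5 libraries). The summed FPKM of other cells' markers was 3.88 to 22.0 for 2 of 7 adipocyte genes, 28.6 to 49.8 for 3 of 6 endothelial genes, 70.3 to 98.7 for 4 of 5 smooth muscle and pericyte genes, 5.63 to 10.1 for 3 of 5 macrophage genes and 57.2 to 166 for 3 of 4 erythroid genes. Of these sums, high altitude library 1 had the lowest for adipocyte, endothelial, smooth muscle and pericyte, and erythroid genes, but not for macrophage genes. Leaving this library out moved some log2 fold changes and medians of nuclear subunits by more than 1.5 times or across 0. Where one of these is first printed, the value without the library is also given. In bulk muscle, a change in the share of fibres of a type and a change in RNA per fibre cannot be told apart.

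Subunit levels differed far more between genes than between altitudes. NDUFA4 had the highest mean level over the 6 libraries, an FPKM of 1011, followed by the complex I membrane arm subunits NDUFB1 (783) and NDUFB9 (462) and the oxidase subunits COX5A (446) and COX5B (410). NDUFA6 had the lowest, 1.68, and COX7A2L, a factor that joins complexes III and IV into supercomplexes, was next at 16.5. The annotation behind the table is not named, and whether it holds the whole NDUFA6 gene was not tested, so this low level may not be that of the full transcript. The median matched subunit was at 102 in complex I, 119 in complex II, 185 in complex III, 176 in complex IV and 233 in complex V. Within a complex, the highest subunit exceeded the lowest by 1.93-fold in complex II and 2.48-fold in complex V, by 7.74-fold in complex III, by 61.2-fold in complex IV and, leaving out NDUFA6, by 18.7-fold in complex I. How reads were divided between a gene and its close copies is not stated. Values of subunits with processed pseudogenes, which are common for such genes, are uncertain.

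**Figure D1:**
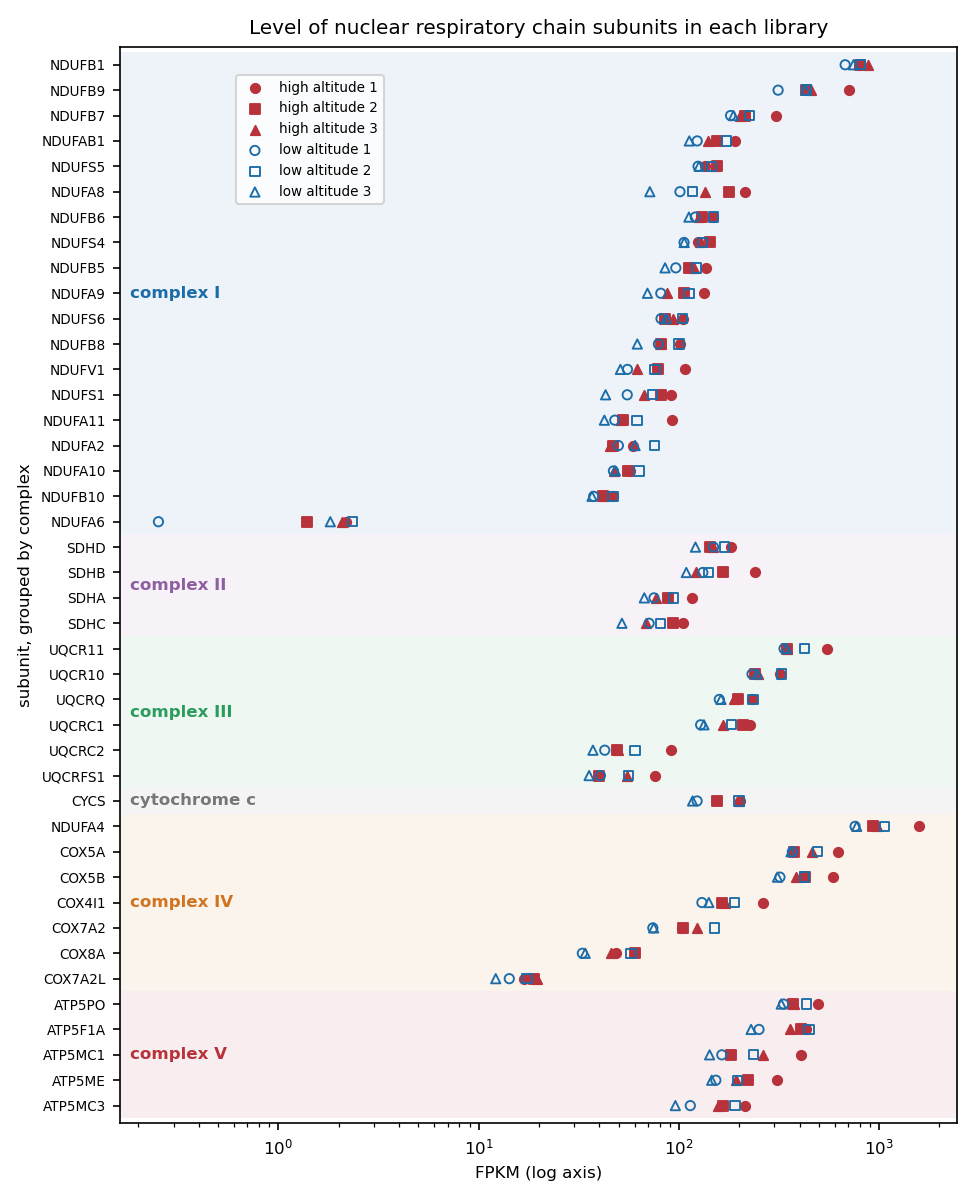
FPKM (log axis) of the subunits in each of the 6 libraries, with subunits grouped by complex and ordered by mean level. Filled symbols are high altitude libraries and open symbols low altitude libraries, and the marker shape is the library number. Most subunits span less than a few-fold across libraries, high altitude library 1 is often the rightmost point, low altitude libraries 1 and 3 the leftmost, and NDUFA6 lies far below the other complex I subunits.

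Across the whole set, nuclear subunits were slightly lower at low altitude in estimate, and no single subunit passed the test. The log2 fold change was fitted on the log2(FPKM + 1) scale as low minus high altitude. It was below 0 for 42 of 43 subunits, where 42.3% of the 10005 tested genes had an estimate below 0. Its median was -0.31 over the subunits and 0.041 over all tested genes. Without high altitude library 1 these medians were -0.16 and -0.023. In limma, with p-values adjusted by Benjamini-Hochberg over every gene tested, 0 of 43 subunits changed (adjusted p = 0.349 to 0.99), where 0.230% of all tested genes did. An unadjusted p under 0.05 was reached by 2 subunits, NDUFA8 and ATP5ME, where 9.42% of tested genes reached it. The groups did not overlap in 1 subunit, NDUFA8, and 4.80% of tested genes were lower at low altitude without overlap. Both shares of subunits are close to or under those of all genes. The 43 subunits were measured in the same 6 libraries and vary together, so the 42 estimates below 0 are not 42 separate observations.

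By complex, the median log2 fold change was -0.25 in complex I, -0.32 in complex II, -0.26 in complex III, -0.34 in complex IV and -0.47 in complex V, and cytochrome c was at -0.37. Without high altitude library 1 the medians of complexes I to V were -0.16, -0.13, -0.092, -0.22 and -0.34, and cytochrome c was at -0.30. Replicate libraries differed in the median level of a complex by a pooled SD of 0.25 (complexes I, II and III), 0.33 (IV) or 0.41 (V). The complexes were measured in the same libraries and vary together, so this spread cannot judge a difference between complexes. No such difference was tested. The medians, and the sums that follow, cover matched subunits only, and how the 29 unmatched symbols fall among the complexes is not given here. The summed FPKM of complex I was 3679, 3066 and 3018 at high and 2465, 3137 and 2559 at low altitude. That of complex V was 1854, 1346 and 1352 at high and 1015, 1501 and 937 at low altitude. In both, low altitude library 2 lay above high altitude libraries 2 and 3. The groups' mean sums differed by 1.20-fold in complex I, 1.23-fold in complex II, 1.14-fold in complex III, 1.29-fold in complex IV and 1.32-fold in complex V, higher at high altitude in each, and the groups overlapped in each.

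**Figure D2:**
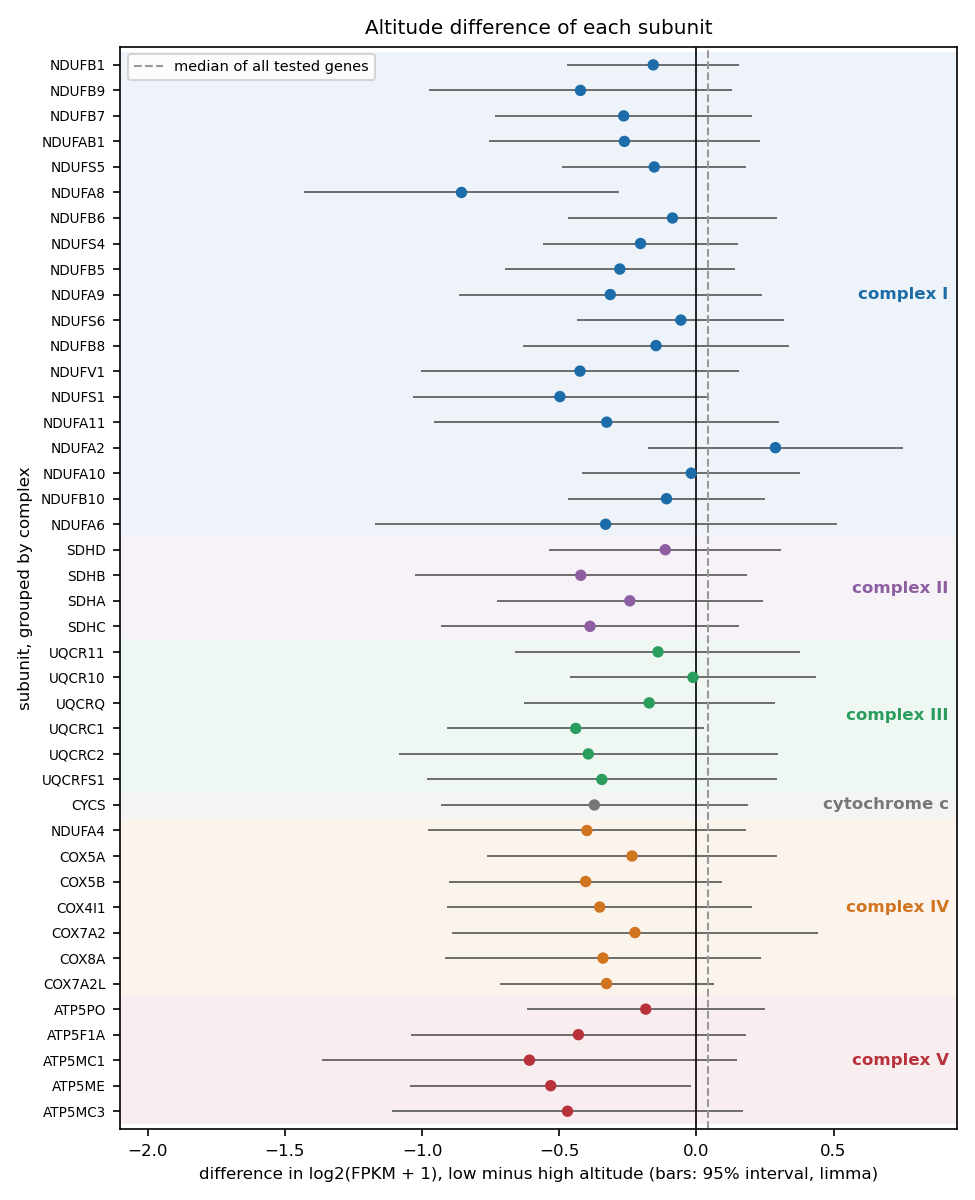
Fitted difference in log2(FPKM + 1), low minus high altitude, by subunit with its 95% interval from limma (n = 3 libraries per group), grouped by complex. The solid line marks no difference and the dashed line the median of all tested genes (0.041). Every point drawn lies left of 0 except that of NDUFA2, and of the intervals drawn those of NDUFA8 and ATP5ME exclude 0.

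In complex I, 19 of 20 subunits had estimates below 0 and none passed the adjusted threshold. NDUFA8, an accessory subunit of the membrane arm, had the largest difference of the 43. Its FPKM was 214, 177 and 134 at high and 101, 116 and 71.6 at low altitude. Every high altitude library was above every low altitude library. NDUFA8 was 1.82-fold higher at high altitude (175 ± 39.8 against 96.4 ± 22.8, SD, n = 3; log2 fold change -0.86, SE 0.24, 95% interval -1.43 to -0.28, limma with Benjamini-Hochberg adjusted p = 0.349). Without high altitude library 1 the log2 fold change of NDUFA8 was -0.70 and the groups still did not overlap.

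NDUFS1, the largest iron-sulfur core subunit of the arm that reaches into the matrix, was at 91.8, 81.4 and 66.9 at high and 55.2, 73.6 and 43.02 at low altitude. The level in low altitude library 2 lay between those of the high altitude libraries. The log2 fold change of NDUFS1 was -0.50 (SE 0.23, 95% interval -1.03 to 0.038, limma with Benjamini-Hochberg adjusted p = 0.556). NDUFV1, which binds NADH, was at 108, 78.4 and 62.0 at high and 55.3, 75.9 and 51.0 at low altitude. In both core subunits low altitude libraries 1 and 3 were the lowest of the 6. NDUFV1 had a log2 fold change of -0.42, and of -0.22 without high altitude library 1.

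The 7 NDUFB subunits, which build the far part of the membrane arm, all had estimates below 0, from -0.42 to -0.087, with a median of -0.16. They were from -0.20 to -0.020, with a median of -0.081, once high altitude library 1 was left out. NDUFB9 was at 708, 431 and 459 at high and 313, 432 and 429 at low altitude. The highest was high altitude library 1 and the lowest low altitude library 1, and the other 4 libraries lay close together. NDUFB1 was at 795, 799 and 883 at high and 676, 803 and 744 at low altitude, a fold of 1.11 higher at high altitude (95% interval of the log2 fold change -0.47 to 0.16). NDUFB7 was at 306, 215 and 202 at high and 181, 226 and 187 at low altitude, with overlapping groups (log2 fold change -0.27, and -0.081 without high altitude library 1).

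NDUFA2, an accessory subunit of the matrix arm, was the one subunit of the 43 with an estimate above 0. Its FPKM was 58.7, 46.7 and 45.2 at high and 49.8, 75.8 and 60.4 at low altitude. The groups overlapped because high altitude library 1 lay above low altitude library 1. Its log2 fold change was 0.29 (SE 0.20, 95% interval -0.18 to 0.75, limma with Benjamini-Hochberg adjusted p = 0.696). Without high altitude library 1 it was 0.40 and the groups no longer overlapped. NDUFA6, another accessory subunit, was at 2.17, 1.39 and 2.09 at high and 0.252, 2.34 and 1.82 at low altitude. Low altitude library 1 alone was low, and NDUFA6 levels were the smallest of complex I in each library. NDUFA2 and NDUFA6 were named after their values were seen, as was NDUFV1. NDUFAB1, the mitochondrial acyl carrier protein, and NDUFS4, NDUFS5, NDUFS6, NDUFA9, NDUFA10 and NDUFA11 had log2 fold changes from -0.33 to -0.019. These were from -0.24 to 0.028 without high altitude library 1, above 0 in NDUFS6 and NDUFA10.

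Complex II feeds electrons from the citrate cycle, and all 4 of its subunits had estimates below 0. SDHB, the iron-sulfur subunit, was at 240, 166 and 121 at high and 132, 140 and 109 at low altitude. High altitude library 3 lay below low altitude libraries 1 and 2, so the groups overlapped. The log2 fold change of SDHB was -0.42 (SE 0.26, limma with Benjamini-Hochberg adjusted p = 0.661). That of the membrane anchor SDHC was -0.39 (SE 0.23, limma with Benjamini-Hochberg adjusted p = 0.656). Both were smaller without high altitude library 1, at -0.17 for SDHB and -0.26 for SDHC. SDHC was at 105, 93.5 and 68.5 at high and 71.0, 80.8 and 51.9 at low altitude. The flavoprotein SDHA, which oxidises succinate, was at 116, 88.2 and 77.1 at high and 75.1, 93.6 and 67.1 at low altitude. SDHD, the other membrane anchor, was at 182, 143 and 148 at high and 149, 169 and 121 at low altitude. All 4 genes were highest in high altitude library 1 and lowest in low altitude library 3. SDHD had a log2 fold change of -0.11, which was 0.016 without low altitude library 3 and -0.0068 without high altitude library 1.

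In complex III the larger estimates were in its core, whose size rested in part on high altitude library 1. UQCRC1, a core subunit, was at 227, 208 and 166 at high and 128, 183 and 133 at low altitude. Low altitude library 2 lay above high altitude library 3, and the other low altitude libraries lay below all 3 high altitude libraries. The log2 fold change of UQCRC1 was -0.44 (SE 0.20, 95% interval -0.91 to 0.028, limma with Benjamini-Hochberg adjusted p = 0.552). UQCRC2, the other core subunit of that pair, was at 91.2, 48.9 and 49.4 at high and 42.6, 60.3 and 37.2 at low altitude. UQCRFS1, the Rieske iron-sulfur protein, was at 76.0, 40.01 and 55.1 and at 40.5, 55.8 and 35.6. Both were highest by far in high altitude library 1. The choice of UQCRFS1 followed from seeing its values. The 3 core genes had a median log2 fold change of -0.39. It was -0.12 without high altitude library 1, with UQCRC1 at -0.34, UQCRC2 at -0.10 and UQCRFS1 at -0.12.

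The accessory subunits UQCR10, UQCR11 and UQCRQ had a median of -0.14, and of 0.083 without high altitude library 1. UQCR10 was at 319, 239 and 250 at high and 232, 325 and 246 at low altitude, with means of 269 ± 43.2 and 268 ± 50.2 (SD, n = 3). Its log2 fold change was -0.013, with a 95% interval of -0.46 to 0.44, and was above 0 with the libraries rescaled to the same FPKM total (0.063) and without high altitude library 1 (0.11). UQCR11 was at 550, 346 and 345 at high and 335, 425 and 345 at low altitude, and only high altitude library 1 lay far above the rest. Without that library the log2 fold change of UQCR11 was 0.083. UQCRQ was at 232, 198 and 188 at high and 159, 235 and 162 at low altitude, and low altitude library 2 was its highest library. Cytochrome c (CYCS), the soluble carrier between complexes III and IV, was at 203, 155 and 199 at high and 123, 199 and 117 at low altitude. Its level in low altitude library 2 was that of high altitude library 3, and the other low altitude libraries were the lowest (log2 fold change -0.37, SE 0.24, limma with Benjamini-Hochberg adjusted p = 0.677).

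All 7 complex IV subunits had estimates below 0, from -0.40 to -0.22, and from -0.39 to -0.042 without high altitude library 1. NDUFA4 was at 1580, 927 and 971 at high and 758, 1060 and 772 at low altitude. Its level in high altitude library 1 was 1.66 times the mean of the other high altitude libraries. The log2 fold change of NDUFA4 was -0.40 (SE 0.25, 95% interval -0.98 to 0.18, limma with Benjamini-Hochberg adjusted p = 0.667), and was -0.15 without high altitude library 1. COX4I1, the common isoform of the regulatory subunit 4, was at 261, 164 and 170 at high and 130, 189 and 141 at low altitude. COX5A and COX5B, on the matrix side of the oxidase, were at 621, 374 and 462 and at 591, 428 and 386 at high altitude. At low altitude COX5A was at 368, 491 and 363 and COX5B at 319, 424 and 310. In COX4I1, COX5A and COX5B, high altitude library 1 was the highest of all 6 libraries and low altitude library 2 the highest of its group.

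The 3 remaining oxidase genes had another order at high altitude. COX7A2, the isoform of subunit 7A that most tissues use, was at 104, 105 and 123 at high and 74.1, 150 and 74.8 at low altitude. COX8A was at 48.3, 60.4 and 45.8 and at 32.9, 57.7 and 34.0. COX7A2L was at 16.9, 18.9 and 19.5 and at 14.2, 17.4 and 12.2. In none of the 3 was high altitude library 1 the highest of its group. Low altitude libraries 1 and 3 were the lowest of the 6 in all 3. Among complex IV subunits COX7A2L had the smallest p (log2 fold change -0.33, SE 0.17, 95% interval -0.72 to 0.063, limma with Benjamini-Hochberg adjusted p = 0.597). Without high altitude library 1, its groups did not overlap (log2 fold change -0.39).

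Complex V had the lowest median over its matched subunits, and these 5 were between -0.61 and -0.18. All 5 were between -0.38 and -0.052 without high altitude library 1. ATP5ME, the small membrane subunit e that takes part in joining ATP synthase dimers, was at 310, 221 and 193 at high and 153, 196 and 146 at low altitude. Low altitude library 2 was just above high altitude library 3. ATP5ME was 1.47-fold higher at high altitude (241 ± 61.2 against 165 ± 27.1, SD, n = 3; log2 fold change -0.53, SE 0.22, 95% interval -1.04 to -0.019, limma with Benjamini-Hochberg adjusted p = 0.506). Without high altitude library 1 its log2 fold change was -0.34. ATP5F1A, the alpha subunit of the catalytic head, was at 429, 408 and 360 at high and 251, 446 and 229 at low altitude. Its highest library and its 2 lowest were of the low altitude group. ATP5PO, the stalk subunit that holds the head still, was at 492, 369 and 378 at high and 333, 432 and 324 at low altitude.

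ATP5MC1 and ATP5MC3 encode the same mature ring subunit c behind different import sequences, and they were the only isoforms of one subunit that could be compared. ATP5MC1 was at 408, 183 and 263 at high and 164, 236 and 142 at low altitude, a log2 fold change of -0.61 (SE 0.32, limma with Benjamini-Hochberg adjusted p = 0.608). Without high altitude library 1 it was -0.31. ATP5MC3 was at 214, 165 and 157 at high and 114, 190 and 96.0 at low altitude (log2 fold change -0.47). ATP5MC1 made up 65.6, 52.5 and 62.6% of the summed FPKM of the pair at high and 59.0, 55.4 and 59.7% at low altitude. The low altitude values lay within the high altitude range, and the difference of -2.20 percentage points had p = 0.7 in an exact two-sided permutation test (n = 3 per group), where the smallest possible p is 0.1.

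Most subunits were highest in the same library of each group, and levels crossed between the altitude groups. Low altitude library 2 was the highest of its group for all 43 subunits, where this held for 46.4% of tested genes. High altitude library 1 was the highest of its group for 37 of 43 (19.3% of tested genes) and the highest of all 6 libraries for 29 (1004 of the 10005 tested genes). Low altitude libraries 1 and 3 both lay below all 4 others for 34 of 43 (8.93%). These are descriptions of the libraries and carry no test. Over the subunits, high altitude library 1 was at a median of 1.29 times the mean of the other high altitude libraries, and low altitude library 2 at 1.36 times the mean of the other low altitude libraries. Against the high altitude mean, low altitude library 2 was at a median ratio of 1.00. The median excess of high altitude library 1 was 1.24-fold in complex I, 1.35-fold in complex II, 1.45-fold in complex III, 1.45-fold in complex IV and 1.33-fold in complex V. That of low altitude library 2 was 1.35-, 1.28-, 1.43-, 1.39- and 1.55-fold.

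**Figure D3:**
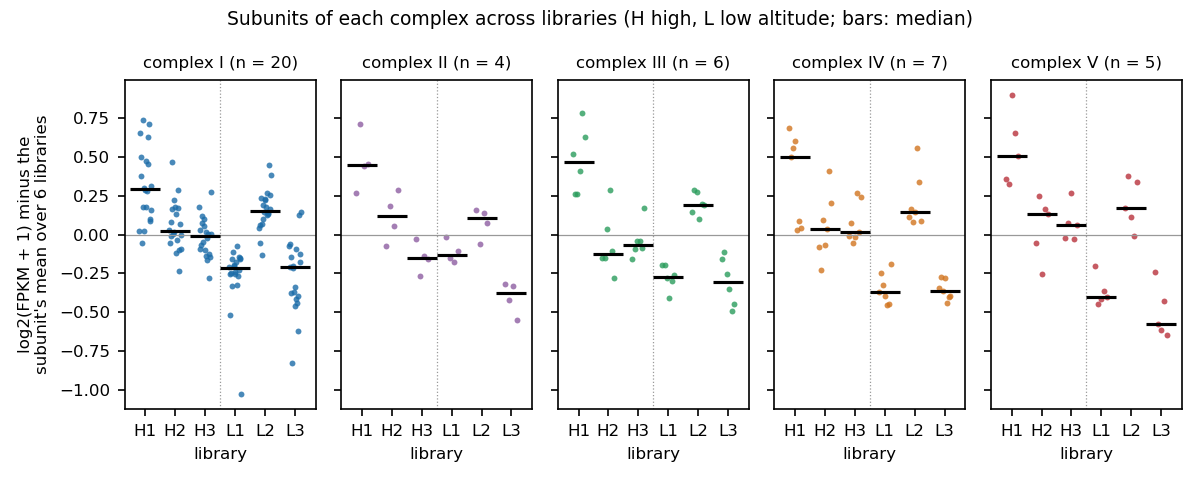
Each point is 1 subunit in 1 library, as log2(FPKM + 1) minus that subunit's mean over the 6 libraries, in a panel per complex, with H for high and L for low altitude and black bars for the median. In each of the 5 panels H1 has the highest median, L2 lies above 0, and L1 and L3 lie below 0.

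The size of the altitude difference moved with single libraries. Without high altitude library 1, 38 of 43 estimates were below 0, where 53.7% of tested genes were. Of these 38, 24 were more than 1.5 times nearer 0 than with it, and 6 were further from 0. The median log2 fold change of the subunits was -0.16. Lower at low altitude without overlap were then 3 subunits, COX7A2L, NDUFS5 and NDUFA8 (18.0% of tested genes), and higher without overlap was NDUFA2 (14.3%). Of all tested genes 0.170% passed in limma with Benjamini-Hochberg adjustment, and of the 43 subunits none. The medians were then -0.16 in complex I, -0.13 in complex II, -0.092 in complex III, -0.22 in complex IV and -0.34 in complex V. Without low altitude library 2, 42 of 43 estimates were below 0 (47.1% of tested genes), the median was -0.48, and 34 subunits were lower at low altitude without overlap, where 11.3% of tested genes were. Even then 0 of 43 passed in limma with Benjamini-Hochberg adjustment, against 0.210% of all genes, and 10 had an unadjusted p under 0.05 (8.60% of tested genes). Without low altitude library 3 the median was -0.21, and 38 of 43 estimates were below 0 (40.4% of tested genes). The adjusted count was 0 in each fit that left out 1 library.

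Markers of slow fibres moved with the subunits in part. Relative to each gene's own mean over the 6 libraries, the median of the 43 subunits was 0.38, 0.033 and -0.024 at high and -0.25, 0.16 and -0.35 at low altitude, in log2(FPKM + 1). That of the 5 slow fibre markers TNNI1, TNNC1, TNNT1, MYL3 and MYH7B was 1.08, -0.68 and 0.54 at high and -0.55, -0.038 and -0.54 at low altitude. Both sets were highest in high altitude library 1, and within the low altitude group both were highest in library 2. They parted in high altitude library 2, where the slow fibre markers were at their lowest and the subunits near their mean. The summed FPKM of the 5 fast fibre markers in the table, of 12 on the list, lay between 40180 and 48670 in the high altitude libraries and between 43134 and 43924 in the others. The part of fibre type in the subunit levels was not tested.

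Subunits encoded in mitochondrial DNA did not share this order. Of the 13, 11 were lower at low altitude without overlap, where 4.80% of all tested genes were. This count is of FPKM that was not rescaled between libraries. The 13 were measured in the same 6 libraries, so the 11 are not 11 separate observations. Of each library's FPKM total, the 13 made up 30.2, 31.9 and 32.5% at high and 30.7, 29.7 and 25.2% at low altitude. In that share the groups overlapped. The FPKM total includes ACTA1, at 34168 in high altitude library 2, 35618 in low altitude library 3 and 0 in the others. The median level of the 13 relative to the 6-library mean was 0.059, 0.21 and 0.12 at high and -0.074, -0.10 and -0.21 at low altitude. Their median log2 fold change was -0.25 in complex I (7 genes), -0.32 for CYTB of complex III, -0.30 in complex IV (3 genes) and -0.19 in complex V (2 genes), beside -0.25, -0.26, -0.34 and -0.47 for the nuclear subunits. None of the 13 passed the adjusted threshold in limma with Benjamini-Hochberg adjustment (smallest adjusted p = 0.363), and 7 had an unadjusted p under 0.05, which 9.42% of all tested genes reached. In contrast to these 11, 1 of the 43 nuclear subunits, NDUFA8, was below all high altitude libraries in low altitude library 2. Whether nuclear and mitochondrial subunits differed in their altitude difference was not tested.

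**Figure D4:**
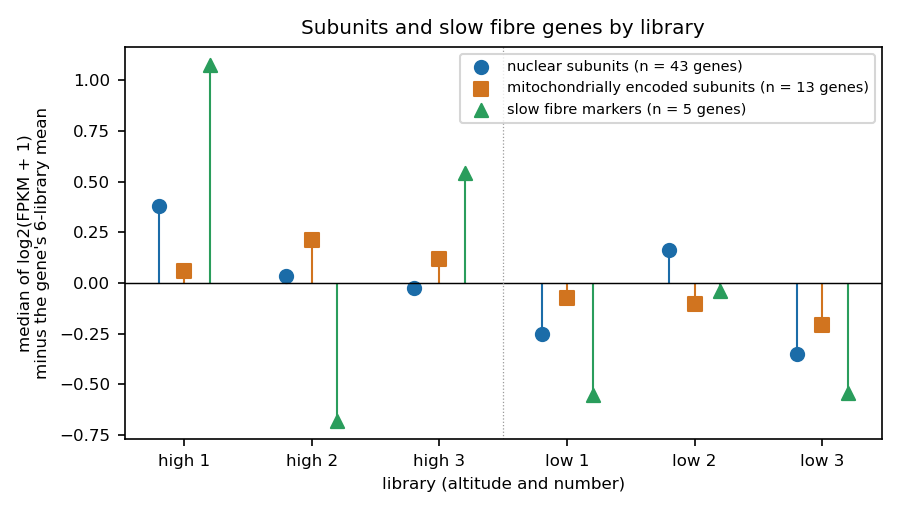
Median over genes of log2(FPKM + 1) minus each gene's 6-library mean, per library, for the 43 nuclear subunits (circles), the 13 mitochondrially encoded subunits (squares) and 5 slow fibre markers (triangles). The squares are above 0 in all 3 high altitude libraries and below 0 in all 3 low altitude libraries, while the circles are above 0 in low altitude library 2.

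Assembly factors, which build the complexes without being part of them, had a lower median level than the subunits and estimates in both directions. Of 64 listed assembly factors and regulators of ATP synthase, 30 were in the table and 28 were tested, with a median FPKM of 7.14. Estimates were below 0 for 17 and above 0 for 11, where 42.3% of all tested genes were below 0. The median log2 fold change was -0.028, beside 0.041 over all tested genes. In limma with Benjamini-Hochberg adjustment 0 of 28 passed, while 3 had an unadjusted p under 0.05. That is 10.7%, near the 9.42% of all tested genes. Of the 28, 4 were lower at low altitude without overlap, a larger share than the 4.80% of all tested genes. Another 3 were higher without overlap, and the share of all genes for that is not given here. Neither count was tested. By complex, estimates were below 0 in 8 of 12 factors for complex I, 0 of 1 for complex II, 1 of 2 for complex III, 6 of 10 for complex IV and 2 of 3 for complex V. NDUFAF7, a methyltransferase that acts in complex I assembly, was at 4.79, 4.99 and 4.09 at high and 2.95, 3.06 and 2.66 at low altitude. The groups did not overlap (log2 fold change -0.53, SE 0.13, limma with Benjamini-Hochberg adjusted p = 0.282). COA4, a factor for complex IV, went the other way, at 9.93, 12.5 and 7.30 at high and 20.1, 17.8 and 16.2 at low altitude, also without overlap (log2 fold change 0.83, SE 0.20, limma with Benjamini-Hochberg adjusted p = 0.282). NDUFAF3, another complex I factor, was at 17.1, 16.5 and 19.3 at high and 20.8, 25.0 and 23.5 at low altitude (log2 fold change 0.37, limma with Benjamini-Hochberg adjusted p = 0.481). COX17, the copper chaperone of complex IV, was the most abundant factor after ATP5IF1 in 1 library and the most abundant of all in 5, at 300, 407 and 430 and at 359, 476 and 434. ATP5IF1, which blocks ATP synthase from running backwards, was at 358, 253 and 244 at high and 220, 264 and 197 at low altitude, highest in library 1 of the high and library 2 of the low altitude group, as most subunits were. NDUFA4L2, a relative of NDUFA4 known to be induced by low oxygen, was at 0.378 in high altitude library 2 and 0.0939 in low altitude library 1, and was listed at 0 in the others. These genes were named after their values were seen.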

How the data were processed

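Muscle RNA of 6 pigs was analysed, 3 per altitude, with groups and numbers read from the sample titles. The authors deposited FPKM values as 1 table of 25322 genes by 6 libraries. Per the labels' protocols, total RNA was extracted with TRIzol and made into dUTP strand-specific libraries. Per the submitters' processing notes, the tools were TopHat2 2.0.11 and Cufflinks 2.2.1. No source used here names the genome build or annotation, and coordinates were left out.

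From the FPKM, log2(FPKM + 1) was computed. Genes reaching an FPKM of 1 in 3 or more libraries (10005) were fitted with limma 3.58.1 in R 4.3.3 (two-sided, variance trend). The Benjamini-Hochberg adjustment covered every gene fitted, with a threshold of 0.05. A fold between altitudes is the ratio of the groups' mean FPKM. Other folds are between the subunits or libraries named with them. A count model does not suit FPKM and was not run. The 3 libraries per group limit the precision. A p-value sets the difference between the groups against the spread between these animals, moderated over all genes fitted. The fit was tested on simulated data. A gene name table gave symbols to 11804 IDs. Members, lists and role groups were chosen with earlier results of these data known. Named members were the 3 most abundant of each complex, the next 2 by unadjusted p, and isoforms. Other marker lists (skeletal muscle, adipocyte, endothelium, fibroblast, smooth muscle, macrophage and erythroid) served as checks of the tissue. Alternatives were pseudocounts of 0.1 and 0.5, other filters, 4 scalings, other variance models, a replicate block, placing NDUFA4 with complex I, and leaving out each library. A fit without the genes that are at 0 in one library yet reach an FPKM of 5 elsewhere was chosen after seeing the data. Same-numbered libraries did not deviate together (correlations of -0.015, 0.095 and -0.14), so numbers were not taken as pairs. Figures were drawn with matplotlib 3.10.9. Counts, sums and medians cover all 43 subunits, of which 1 is not reported here by itself and is not drawn in the plots that name subunits.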

Additional observations from a re-analysis of the deposited data

How the results depend on the processing

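No subunit passed the adjusted threshold under any of the 19 alternatives. The medians of complexes I to V stayed below 0 and within 1 SD of the replicate spread in each alternative run for them. That limit is wide. In complexes I and III the SD of 0.25 was about the size of the median itself (-0.25 and -0.26). The move of complex III to -0.092 without high altitude library 1 fell within it. The count of changed genes over all genes, 23, was 8 with no filter, 49 with rescaling to the same FPKM total outside the mitochondrial genome, 10 with quantile normalization, 9 when scaled by median-of-ratios factors, 38 with array weights, and 4 to 21 when 1 library was left out (4 without high altitude library 3 or low altitude library 3, 6 without low altitude library 1, 11 without high altitude library 2). Subunits lower without overlap, 1 as reported, were 4 with quantile normalization (7.95% of all tested genes) and 4 when scaled by median-of-ratios factors (7.99%). They were 1 to 34 when 1 library was left out, with 34 without low altitude library 2 (11.3%) and 8, 4 and 3 when high altitude libraries 3, 2 and 1 were left out in turn (6.40, 8.61 and 18.0%). With the libraries rescaled to the same FPKM total, the median of all genes moved from 0.041 to 0.10, and 32.6% of tested genes were below 0. Of 43 subunits 39 were below 0, with a median of -0.24. The totals here, with or without the mitochondrial genome, include ACTA1, at 34168 in high altitude library 2 and 35618 in low altitude library 3. ACTA1 was listed at 0 in the others, and its part in these results was not tested. With the replicate block, 0 subunits and 19 genes passed, and no subunit changed its side of the threshold.

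For the 27 named subunits, 478 of 486 values kept their direction. Part of the 486 could not differ. The other filters, limma without trend, robust limma and the replicate block leave each estimate as it was. UQCR10 was at 0.063 rescaled to the same total, 0.0030 rescaled outside the mitochondrial genome, 0.047 with array weights, and 0.11, 0.083 and 0.039 without high altitude library 1, low altitude library 1 and low altitude library 3. Leaving out 1 library gave -0.16 to 0.11 for UQCR10, -0.25 to 0.083 for UQCR11 (above 0 without high altitude library 1) and -0.22 to 0.016 for SDHD (above 0 without low altitude library 3). The difference in ATP5MC1 share was then -6.08 to 0.495 percentage points, above 0 without high altitude library 1. The fit without genes at 0 in one library, chosen after seeing the data, had 19 changed genes and 0 subunits. The cause of these shifts was not tested.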

Other observations

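Of 12 listed genes of the mitochondrial membranes outside the respiratory complexes, 10 were tested. Estimates were below 0 for 8, where 42.3% of all tested genes were below 0, and the median log2 fold change was -0.089. None passed the threshold in limma with Benjamini-Hochberg adjustment (smallest adjusted p = 0.577). SLC25A4, the muscle ADP/ATP carrier, was at an FPKM of 969, 590 and 760 at high and 551, 889 and 596 at low altitude, again with high altitude library 1 and low altitude library 2 the highest of their groups. VDAC1, the main pore of the outer membrane, was at 228, 204 and 209 and at 198, 216 and 196. Of 10 listed regulators of mitochondrial genes, 7 were tested and none passed. ESRRA, a nuclear receptor that activates subunit genes, was at 32.4, 19.3 and 26.4 at high and 14.1, 31.6 and 17.2 at low altitude. PPARGC1A, its coactivator, was at 2.16, 2.48 and 3.05 and at 2.85, 4.01 and 2.93. ESRRA was highest in library 1 of the high and library 2 of the low altitude group, as most subunits were, while the order of the other libraries differed from that of the subunit medians. PPARGC1A was highest in library 2 of the low altitude group but lowest in library 1 of the high altitude group. These genes were named after their values were seen.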
